A study of Schizocosa ocreata with 10 samples.

Results

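ftz-f1 encodes an orphan nuclear receptor of the family that also holds Hr39 in insects and SF-1 and LRH-1 in vertebrates. Such a receptor binds DNA through a zinc finger domain and carries a separate ligand-binding domain. In Drosophila ftz-f1 is switched on late in each molting cycle, when the pulse of the steroid hormone ecdysone has passed, and it makes tissues competent to answer the next pulse. Among its regulators in the fly, Hr3 activates ftz-f1, and E75 and Blimp-1 hold it back. These roles are known from insects and were not measured here.

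Among 25943 annotated genes assembled from brain RNA of Schizocosa ocreata, a wolf spider, 2 carried the Drosophila symbol ftz-f1 as their named match, Gene007559 and Gene024685. Both were found by that name alone, and no further gene had it. They were taken up with earlier results of these counts known, so their differences between stages and sexes are given as a description without a test. RNA came from the brains of field-collected spiders in 10 libraries, of which immature animals gave 5 (2 females and 3 males) and mature animals gave 5 (3 females and 2 males). Immature (subadult) spiders were dissected 3 to 4 days after collection, at an unknown time before their next molt, and were not matched for age. For mature (adult) spiders dissection followed 24 hours after their last molt, and the samples may include esophagus.

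The libraries held between 3481348 and 11789754 reads assigned to genes. All 37 genes matched by 11 of 12 neuronal marker symbols were detected in every library, and the symbol elav had no match. Neuronal markers held 0.279% to 0.671% of the counts, and 28 genes matched by muscle marker symbols held 6.17% to 14.1%. These muscle genes were taken by fly symbol alone, and whether all their reads came from muscle was not tested. In RNA from whole tissue, fewer cells of a type and less RNA per cell cannot be told apart.

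The predicted proteins of the pair differed in length and domains. The reading frame of Gene007559 spanned 497 codons (positions 83 to 1573, plus strand) of a transcript assembled from mature male 2. It held both domains of a nuclear receptor, a zf-C4 zinc finger domain at residues 40 to 107 and a Hormone_recep ligand-binding domain at residues 299 to 476. Its best Swiss-Prot match was the FTZ-F1 receptor of the silk moth Bombyx mori, with 59.55% identity over residues 65 to 533 of the moth protein. Against the Drosophila protein it matched in 2 blocks, one around the DNA-binding domain with 71.82% identity and one around the ligand-binding domain with 65.09%.

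Gene024685 was shorter, with 170 codons (positions 285 to 794, plus strand) of a transcript assembled from mature female 1. It held the zf-C4 domain at residues 59 to 126 and no ligand-binding domain. Its match to the moth receptor covered residues 65 to 158 of that protein with 78.72% identity, and the 44 codons after its zinc finger domain lay almost entirely outside the match. Both genes therefore matched the same stretch of the moth receptor around the DNA-binding domain. Whether they are separate loci, or forms of 1 gene that the assembly kept apart, cannot be told from the annotation.

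**Figure D1:**
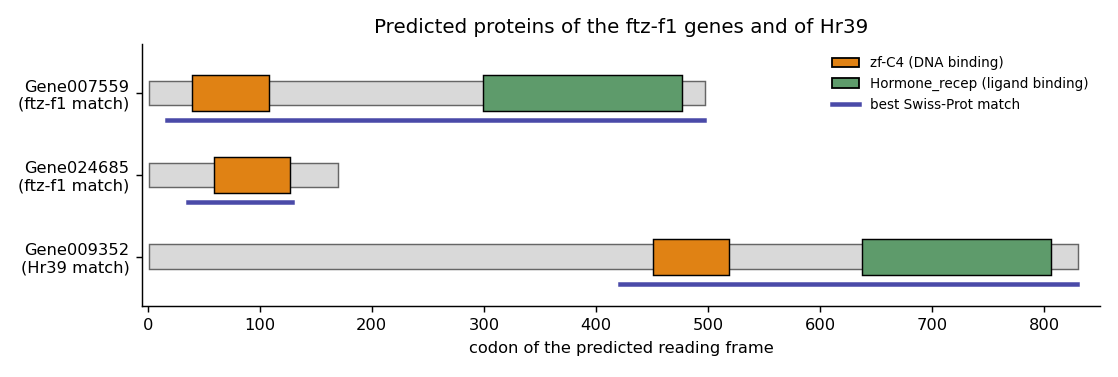
Predicted reading frames of both ftz-f1 genes and of the Hr39 match, drawn to scale in codons, with Pfam domains as coloured boxes and the stretch of the best Swiss-Prot match as a blue line. Gene007559 (497 codons) has a DNA-binding and a ligand-binding domain, and Gene024685 (170 codons) has the DNA-binding domain only.

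A pair of further reading frames without a name matched FTZ-F1 when their nucleotide sequence was translated in the opposite direction. Gene024686 lay on the minus strand of the transcript of Gene024685 and overlapped it by 298 nucleotides, 99.33% of its own length. Gene007560 lay on another contig. They held 43 and 39 reads over all 10 libraries, against 210 of Gene024685 and 2484 of Gene007559. How reads on shared stretches or on either strand were assigned is not given in the sources used here, so the split of reads among these 4 frames is uncertain, and summing them is one of the alternatives given below.

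Gene007559 was higher in each of the 5 mature brains than in any immature brain, but the immature brains spread widely and the 2 highest of them reached nearly to the lowest mature brain. Levels are in CPM, the counts scaled to a common library size after TMM normalization. In immature females it stood at 2.18 CPM (28 reads) in replicate 2 and at 28.8 CPM (263 reads) in replicate 3. In immature males it stood at 13.0, 29.7 and 4.21 CPM in replicates 1, 2 and 3 (66, 178 and 36 reads). Mature females had 50.3, 59.7 and 37.0 CPM in replicates 1, 2 and 3 (469, 194 and 410 reads). In mature males replicate 2 had 48.1 CPM and replicate 3 had 31.9 CPM (516 and 324 reads).

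The immature brains thus covered a 13.6-fold range and the mature brains a 1.87-fold range. The 95% Poisson intervals of the highest immature library, immature male 2 (25.5 to 34.4 CPM), and of the lowest mature library, mature male 3 (28.5 to 35.6 CPM), overlapped, so the gap between the stages was within counting error. Those of immature female 2 (1.45 to 3.16 CPM) and immature female 3 (25.4 to 32.5 CPM) were far apart, so the spread among immature spiders of 1 sex was larger than counting error. Such intervals cover counting error only.

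By group mean the order was mature females at 49.0 ± 11.4 CPM (SD, n = 3), mature males at 40.0 ± 11.5 CPM (SD, n = 2), immature males at 15.7 ± 13.0 CPM (SD, n = 3) and immature females at 15.5 ± 18.8 CPM (SD, n = 2). The ranges of mature females and mature males overlapped, as did those of immature males and immature females. Of the 24930 genes tested, 1.5% had all 5 mature libraries above all 5 immature libraries and 1.91% had them all below. Gene007559 was therefore 1 of 373 genes with such an order, and this share is given without a reading, since the gene was chosen with its values known.

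Gene024685 was read at a lower level, and its stages overlapped. It had 0.156 and 2.62 CPM in immature females 2 and 3 (2 and 24 reads), and 0.79, 2.17 and 0.935 CPM in immature males 1, 2 and 3 (4, 13 and 8 reads). Mature females 1, 2 and 3 had 4.82, 4.00 and 1.90 CPM (45, 13 and 21 reads), and mature males 2 and 3 had 5.41 and 2.17 CPM (58 and 22 reads). Its 3 lowest libraries were immature female 2, immature male 1 and immature male 3, which were also the 3 lowest for Gene007559. Its 3 highest libraries were mature, but immature female 3 and immature male 2 lay above mature female 3 and, the latter barely, above mature male 3.

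The group means of Gene024685 were 3.79 ± 2.29 CPM (SD, n = 2) in mature males, 3.57 ± 1.51 CPM (SD, n = 3) in mature females, 1.39 ± 1.75 CPM (SD, n = 2) in immature females and 1.30 ± 0.76 CPM (SD, n = 3) in immature males. The ranges of neighbouring groups in this order overlapped. With 2 to 58 reads per library, counting error alone was large, and the 95% Poisson interval of immature male 3 ran from 0.404 to 1.84 CPM.

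**Figure D2:**
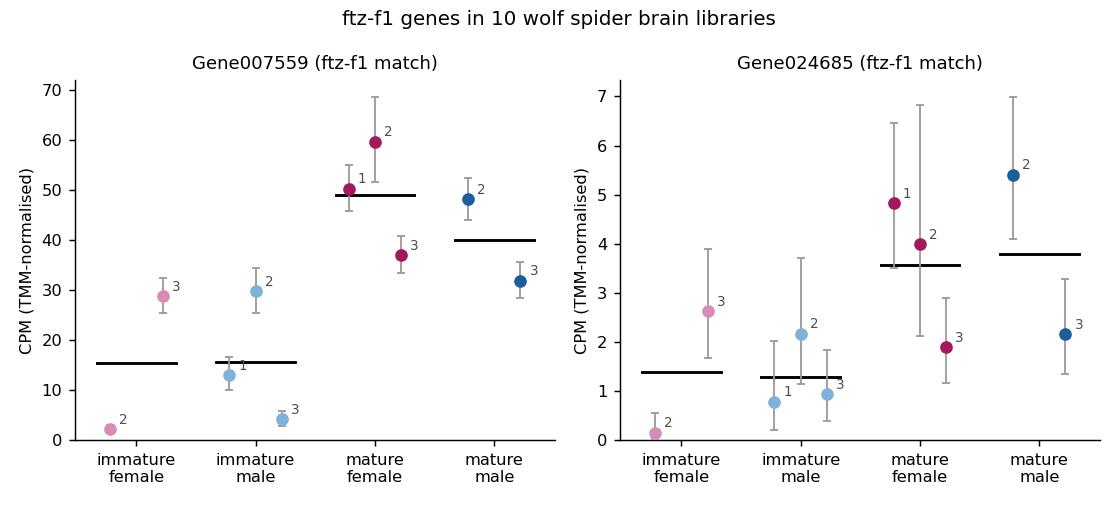
CPM of Gene007559 and of Gene024685 in each library, with 1 point per spider numbered by replicate, 95% Poisson intervals as grey bars and group means as black lines. For Gene007559 the 5 mature brains lie between 31.9 and 59.7 CPM and the 5 immature brains between 2.18 and 29.7 CPM.

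The fitted differences between the stages pointed to higher levels in mature brains and were imprecise. Over both sexes the log2 fold change of mature against immature brains was 1.51 (SE 0.68) for Gene007559 and 1.46 (SE 0.66) for Gene024685, a 2.85-fold and a 2.76-fold difference. In females the values were 1.67 (SE 1.00) and 1.39 (SE 0.95). In males they were 1.36 (SE 0.93) and 1.54 (SE 0.91). Whether the difference between stages itself differed between the sexes was not tested for these genes.

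A gene was called at an adjusted p under 0.05 in the quasi-likelihood test of edgeR. Of the 2 ftz-f1 genes 0 were called, where the test called 0.0% of all genes over both sexes, 0.0% in females and 0.00802% in males. Of the 72 and 64 combinations of setting and comparison fitted for Gene007559 and Gene024685, 0 gave a call. The 72 include fits in which ftz-f1 reading frames were summed. As both genes were chosen with their values known, these outcomes are no test of them. The values in females turned on single libraries. Over both sexes the values without immature female 3 were 2.92 and 2.96. Without immature female 2 the log2 fold change in females was 0.78 for Gene007559 and 0.45 for Gene024685, and without immature female 3 it was 4.48 and 4.38.

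Between the sexes the ftz-f1 genes did not stand apart. The log2 fold change of males against females over both stages was -0.14 (SE 0.67) for Gene007559 and 0.02 (SE 0.65) for Gene024685, a comparison in which 0.0401% of all genes were called and 0 of the 2. Over all female libraries Gene007559 ran from 2.18 to 59.7 CPM and over all male libraries from 4.21 to 48.1 CPM, so the sexes overlapped over nearly their whole range. Without immature female 3 these fold changes were 1.27 and 1.52, and without immature female 2 they were -0.60 and -0.47. The values near 0 thus depended on single libraries that pulled in opposite directions.

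The pair kept a similar proportion in most libraries. Over all libraries Gene024685 had 7.79% of the reads on both genes (210 of 2694, exact 95% binomial interval 6.81% to 8.87%), and per length of coding sequence it was read at 0.247 of the level of Gene007559. Its share was 8.20% in the immature libraries together (6.17% to 10.6%) and 7.67% in the mature libraries together (6.56% to 8.91%), and these intervals overlapped. By library the share lay between 4.87% in mature female 3 and 10.1% in mature male 2, with immature male 3 apart at 18.2% (8 of 44 reads, interval 8.19% to 32.7%). Both genes were thus low in the same immature brains and had overlapping shares at either stage.

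Across the 10 libraries the Pearson correlation of log2 CPM between the pair was 0.93 and Spearman's rho was 0.82. Without the libraries farthest from the median of Gene007559, immature female 2 and immature male 3, the Pearson correlation was 0.91. It was 0.91 among the 5 immature and 0.80 among the 5 mature libraries. No p is given, because both genes were chosen by name with their values known and may share reads.

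The share of reads on genes matched by muscle symbols moved with Gene007559 among the immature brains. The share of counts on the 28 muscle genes was 6.17% in immature female 2, 7.93% in immature male 3, 9.37% in immature male 1, 9.49% in immature female 3 and 12.0% in immature male 2, the same order as that of Gene007559. In mature brains they held 9.27% to 14.1%, with another order. Neuronal markers held 0.294% to 0.466% in immature and 0.279% to 0.671% in mature brains. Glial markers (8 genes, with nrv2 and alrm unmatched) held 0.0561% to 0.076% and 0.0563% to 0.0719%. Haemocyanin matches (18 genes), taken as blood markers, held 2.05% in immature female 3 and 0.0198% to 0.335% in the other immature brains. In mature brains the haemocyanin share was 0.0122% to 0.39%. What part blood had in the level of ftz-f1 was not tested. Counted per 1000 muscle reads, Gene007559 was at 0.0392 to 0.304 in immature and 0.303 to 0.559 in mature brains. On that scale the immature brains were still spread widely, and the stages touched. Counted per 1000 neuronal reads, it was at 0.822 to 7.38 in immature and 5.19 to 15.9 in mature brains. What part muscle tissue had in the level of ftz-f1 was not tested beyond these ratios.

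The place of Gene007559 among the nuclear receptors of the brain changed from library to library. The zf-C4 domain was annotated in 16 genes, a set put together after the annotation was read. Ranked by CPM per kilobase of coding sequence within a library, Gene007559 came 1st, 2nd, 2nd, 1st and 4th in mature females 1, 2 and 3 and mature males 2 and 3. It came 3rd in immature female 3 and immature male 2, and 14th, 14th and 15th in immature males 1 and 3 and immature female 2. At its lowest it was read at 1.47 CPM per kilobase and at its highest, in mature female 2, at 40.0 CPM per kilobase. Gene024685 ranked between 7th (mature male 2) and 16th (immature female 2).

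Hr39, the other receptor of the family, did not follow this pattern. Gene009352, its match, has the domain plan of a full receptor over 830 codons. It was at 24.9 to 56.2 CPM in immature and at 26.5 to 39.2 CPM in mature brains, and its highest value was in immature female 2, where both ftz-f1 genes were at their lowest. Of the other 14 receptor genes, ERR (Gene003236, the estrogen-related receptor, named here after its values were seen) had the pattern closest to Gene007559, with a Pearson correlation of 0.94 over 10 libraries.

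Among immature libraries the SD of log2 CPM was 1.63 for Gene007559 and 1.15 for Gene024685, against a median of 0.48 over all genes tested. Among mature libraries it was 0.36 and 0.64, against a median of 0.41. Only the Hr4 pair (SD 4.37 and 2.46) and Gene022715 (Hr3, SD 3.13) of the 16 receptors spread more than Gene007559 among the immature brains. For Hr39 the SDs were 0.51 among immature and 0.23 among mature libraries.

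**Figure D3:**
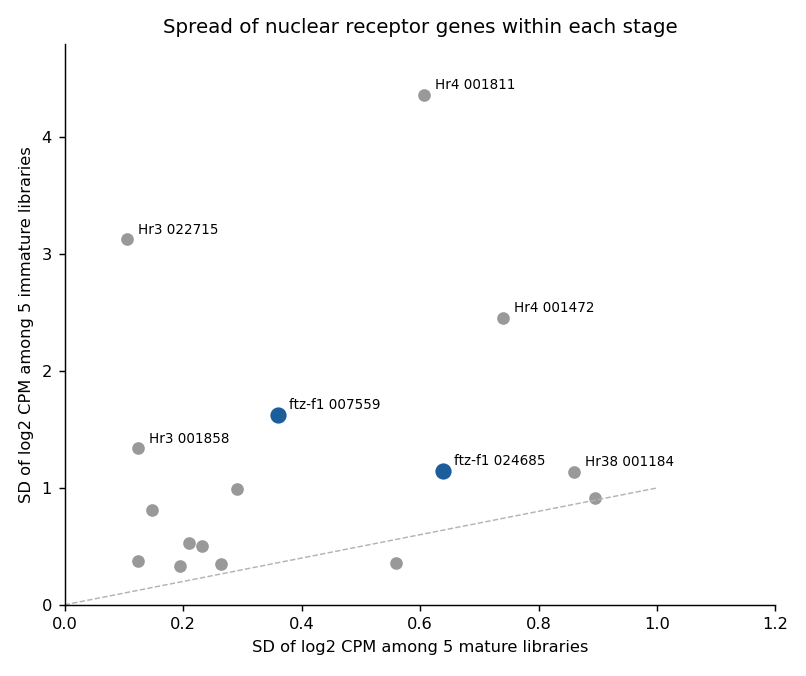
SD of log2 CPM of the 16 genes with a zf-C4 domain, among the 5 mature libraries (x axis) and among the 5 immature libraries (y axis), with the ftz-f1 genes in blue and equal spread as a dashed line. Gene007559 lies at 0.36 and 1.63, and the genes of Hr4 and Gene022715 of Hr3 lie above it.

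Hr3 and Hr4 are receptors that precede ftz-f1 in the fly. Both Hr4 matches and 1 of the 2 Hr3 matches were higher in the 3 immature brains lowest in ftz-f1 than in any other library. Gene022715, a match to Hr3, had 143 and 138 CPM in immature males 1 and 3, 18.2 CPM in immature female 2, 1.42 CPM in immature female 3 and 1.84 CPM in immature male 2. In mature brains it had 2.46 to 3.08 CPM. The other Hr3 match, Gene001858, had 38.5 and 40.0 CPM in immature males 1 and 3 but 6.95 CPM in immature female 2, where ftz-f1 was lowest, below its 8.21 to 9.97 CPM in mature brains. In immature female 3 and immature male 2 it had 6.01 and 8.69 CPM. Gene001811, a match to Hr4, had 505, 668 and 143 CPM in immature male 1, immature male 3 and immature female 2, but 1.42 and 1.34 CPM in immature female 3 and immature male 2 and 1.93 to 5.13 CPM in mature brains. The other Hr4 match, Gene001472, had 137 to 286 CPM in the same 3 libraries, 5.14 and 15.5 CPM in the other 2 immature libraries and 4.13 to 15.7 CPM in mature brains.

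Gene007559 was at 2.18 to 13.0 CPM in the 3 immature brains where Gene022715 and both Hr4 matches were high, and at 28.8 and 29.7 CPM in the 2 where none of these 3 genes was above its highest mature value. The order was not strict, since immature female 2 had the least of both Hr3 matches among those 3 brains and also the least ftz-f1. These are side-by-side values of single spiders, and no groups were formed from them.

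**Figure D4:**
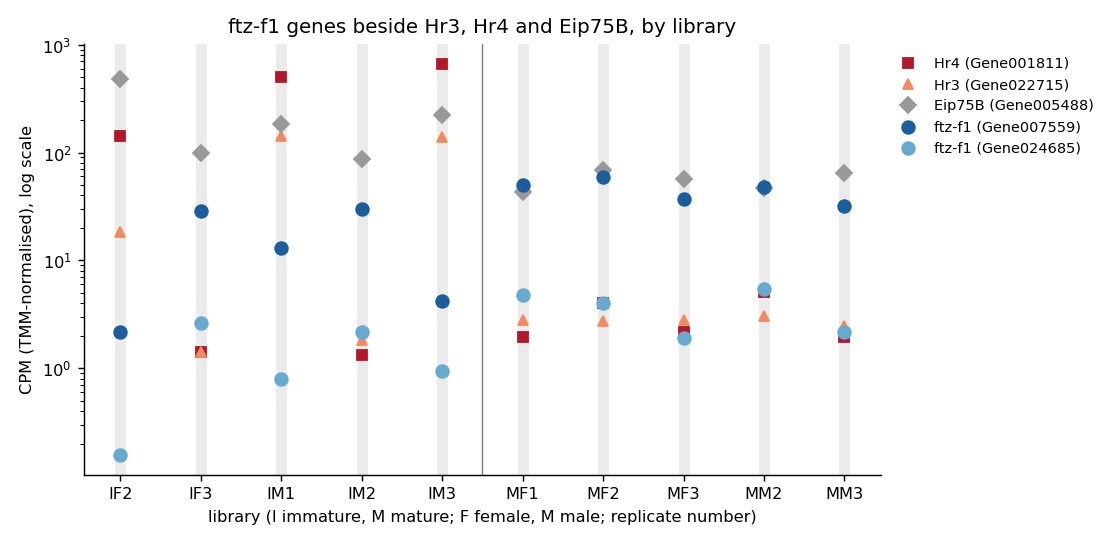
CPM (log scale) of both ftz-f1 genes, Gene022715 (Hr3), Gene001811 (Hr4) and Gene005488 (Eip75B) in each of the 10 libraries, 1 column per spider. In immature female 3 and immature male 2, Gene022715 and Gene001811 lie under 2 CPM and Gene007559 near 29 CPM, as high as at the lower end of the mature brains.

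Of the other genes of the hormone cascade, 110 tested genes matched a list of 50 Drosophila symbols, 35 of which had a match with counts. Over both sexes edgeR's quasi-likelihood test called 0 of these 110 genes and 0.0% of all genes. At an unadjusted p under 0.05 there were 19 of the 110, against 15.1% of all genes. The likelihood ratio test of edgeR, which the study itself used, called 4 of them higher and 6 lower in mature brains, against 1.08% and 1.5% of all genes (2.59% in either direction). DESeq2 called 11 of the 110 genes and 742 of the 24930 genes fitted, in either direction. The median log2 fold change of the list was -0.04 and that of all genes -0.02. The list was put together with earlier results of these data known, and some of its symbols stand for large families in which the named match is only the nearest fly protein.

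Of 7 genes of the receptor complex of the hormone, 0 were called over both sexes by either test of edgeR. Of all genes, the quasi-likelihood test called 0.0% and the likelihood ratio test 2.59%. At an unadjusted p under 0.05 in the quasi-likelihood test there was 1 of the 7, against 15.1% of all genes. The median log2 fold change of the 7 was -0.22. The match to EcR, the ecdysone receptor (Gene017234), had 25.9 to 70.6 CPM in immature and 50.4 to 57.8 CPM in mature brains. Its reading frame of 432 nucleotides had no annotated domain, so neither domain of a nuclear receptor was seen in it. A match to usp, the partner of EcR (Gene018956), had 8.69 to 33.3 and 21.5 to 31.1 CPM. The other usp match (Gene007749) had 6.78 to 28.2 CPM in immature brains, highest in immature female 2, and 5.84 to 7.78 CPM in mature brains. For the coactivator tai (Gene002779) the levels were 105 to 133 CPM and 103 to 113 CPM.

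Among receptors and factors that stand close to ftz-f1 in the cascade, 4 of 20 genes were lower in mature brains by the likelihood ratio test and 0 were higher (1.5% and 1.08% of all genes), and by the quasi-likelihood test of edgeR 0 were called. They were Gene022715 (Hr3, log2 fold change -3.45, SE 1.03, adjusted p = 0.238 by the quasi-likelihood and 0.0222 by the likelihood ratio test), both Hr4 genes (log2 fold change -5.80, SE 1.604, for Gene001811 and -4.03, SE 1.00, for Gene001472), and Gene005488 (Eip75B). Without immature female 2 the log2 fold change was -2.02 for Gene022715, -2.93 for Gene001811, -2.10 for Gene001472 and -1.16 for Gene005488. Gene005488, whose fly protein E75 blocks the activity of Hr3, fell from 86.5 to 479 CPM in immature brains to 42.9 to 68.9 CPM in mature brains by the likelihood ratio test (log2 fold change -1.97, SE 0.45, adjusted p = 0.00425, and 0.18 by the quasi-likelihood test of edgeR). Its 5 immature libraries all lay above its 5 mature ones, as in 1.91% of all genes tested. Among immature brains it was lowest in immature male 2 and immature female 3, where Gene007559 was highest. Eip78C (Gene009104) also had its 2 lowest immature values there, 79.5 and 113 CPM against 192 to 475 CPM, and 94.4 to 113 CPM in mature brains. Its other matches, Gene007139 and Gene008954, had log2 fold changes of -0.21 (SE 0.18) and 0.05 (SE 0.25). Blimp-1, a repressor of ftz-f1 in the fly, was matched by 10 genes, and the most abundant of them (Gene024505) had 51.2 to 74.8 and 53.6 to 72.4 CPM. The Swiss-Prot match of Gene024505 was, however, zinc finger protein 300. Gene014586 and Gene022087 matched a Blimp-1 homolog in Swiss-Prot, at mean levels of 2.38 and 3.86 CPM. Their log2 fold changes were -0.07 (SE 0.32) and -0.31 (SE 0.39).

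Of 10 early genes of the hormone response, 2 were lower in mature brains by the likelihood ratio test and 0 were higher (1.5% and 1.08% of all genes), and 0 were called by the quasi-likelihood test of edgeR. The more abundant match to Eip74EF, an ETS-domain factor (Gene016899), was not among them, with 8.10 to 53.9 CPM in immature and 13.1 to 32.1 CPM in mature brains (log2 fold change 0.01, SE 0.34). The other match, Gene005750, had 8.19 to 43.9 CPM in immature and 4.92 to 9.75 CPM in mature brains. Eip63F-1 (Gene005334), a calcium-binding protein, had 97.1 to 522 and 63.6 to 107 CPM. Gene005750 and Gene005334 were lower in mature brains by the likelihood ratio test (adjusted p = 0.00936 and 0.00883) and not by the quasi-likelihood test of edgeR (0.182 and 0.193). Eip93F (Gene006242), a factor of adult metamorphosis in insects, was at 17.8 to 28.0 and 19.4 to 24.1 CPM.

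The relatives and partners of ftz-f1 had 0 calls in 18 genes over both sexes by the quasi-likelihood or likelihood ratio test (0.0% and 2.59% of all genes). The coactivator mbf1 (Gene005717), which bridges FTZ-F1 to the basal transcription machinery in insects, had 63.0 to 104.3 CPM in immature and 51.6 to 80.0 CPM in mature brains. Among immature brains its lowest value was in immature male 2, where Gene007559 was highest, and its highest values were in immature male 3 and immature female 2, where Gene007559 was lowest. The more abundant match to gce (Gene021303), a juvenile hormone receptor of the fly, had 6.17 to 29.4 and 13.6 to 18.8 CPM. In Swiss-Prot, Gene021303 matched aryl hydrocarbon receptor nuclear translocator-like protein 1, so whether it is a gce gene is open. No gene had ftz, the homeodomain partner after which the receptor is named, as its match.

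Of 38 tested genes matching enzymes and carriers of hormone synthesis and breakdown, 0 were called over both sexes by either test of edgeR (0.0% and 2.59% of all genes). In males 1 of them was lower in mature brains by the likelihood ratio test, Gene005999, a match to the ecdysone-inactivating enzyme Cyp18a1 (adjusted p = 0.0481, and 0.603 by the quasi-likelihood test), where that test called 0.164% of all genes lower. It had 32.4 and 20.6 CPM in immature males 1 and 3, both high in Hr3, and at most 0.501 CPM in the other 8 libraries. Many cytochrome P450 genes had Cyp18a1 as their nearest fly match, and Gene005999 is only 1 of them. The most abundant, Gene002976, was not called in males (log2 fold change 0.22, SE 0.33). Gene006535, a match to Npc1a, which moves sterols, had 157 to 197 CPM in mature and 106 to 149.5 CPM in immature brains. All its mature libraries lay above all immature ones, as in 1.5% of all genes tested. It was not called (adjusted p = 0.287 by the quasi-likelihood test of edgeR). The other Npc1a matches, Gene012027, Gene002291 and Gene018944, overlapped between the stages. Their log2 fold changes over both sexes were 0.19 (SE 0.22), 0.02 (SE 0.28) and 0.22 (SE 0.27).

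Genes of the end of the molt had 4 likelihood ratio calls among 17, all higher in mature brains, where that test called 1.08% of all genes higher. All 4 were matches to Edg84A, a cuticle protein that FTZ-F1 activates in fly prepupae, which had 7 matches in all. The highest of them, Gene012264, had 0.328 to 5.33 CPM in immature and 43.2 to 443 CPM in mature brains (log2 fold change 7.33, SE 1.09, adjusted p = 1.42e-08 by the likelihood ratio and 0.0775 by the quasi-likelihood test of edgeR). Gene008981 had 0.39 to 3.17 and 16.3 to 248 CPM. The other 3 matches to Edg84A were not called over both sexes or not tested. Gene001926 had 210 and 21.4 CPM in immature males 1 and 3 and at most 2.15 CPM in the other libraries. DESeq2 called it lower in mature males (adjusted p = 0.0166), while the likelihood ratio test did not (adjusted p = 0.0849). In that comparison DESeq2 called 255 of the 24930 genes fitted, in either direction. Gene009055 overlapped between the stages, with 0.546 to 161 CPM in immature and 33.7 to 171 CPM in mature brains. Gene023450, too low to be tested, had 44.8 CPM in immature male 1 and at most 0.466 CPM elsewhere. In Gene012264 and Gene008981 the stages were apart by more than in ftz-f1. Among immature brains Gene008981, at low levels, had the same order of libraries as Gene007559. Gene012264 did not, since immature female 3, with 28.8 CPM of Gene007559, had 0.328 CPM of Gene012264, the least of all libraries. The other called matches, Gene009112 and Gene010921, were lowest in immature female 2 and highest among immature brains in immature male 2 (1.17 and 3.68 CPM). Whether these genes depend on ftz-f1 was not tested. Genes with the cuticle domain Chitin_bind_4 as a whole (94 genes) held 0.0528% to 0.828% of the counts in immature and 0.166% to 0.879% in mature brains, so by share the stages overlapped. Edg84A is 1 fly protein, and these spider genes are named after it as their nearest match only.

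**Figure D5:**
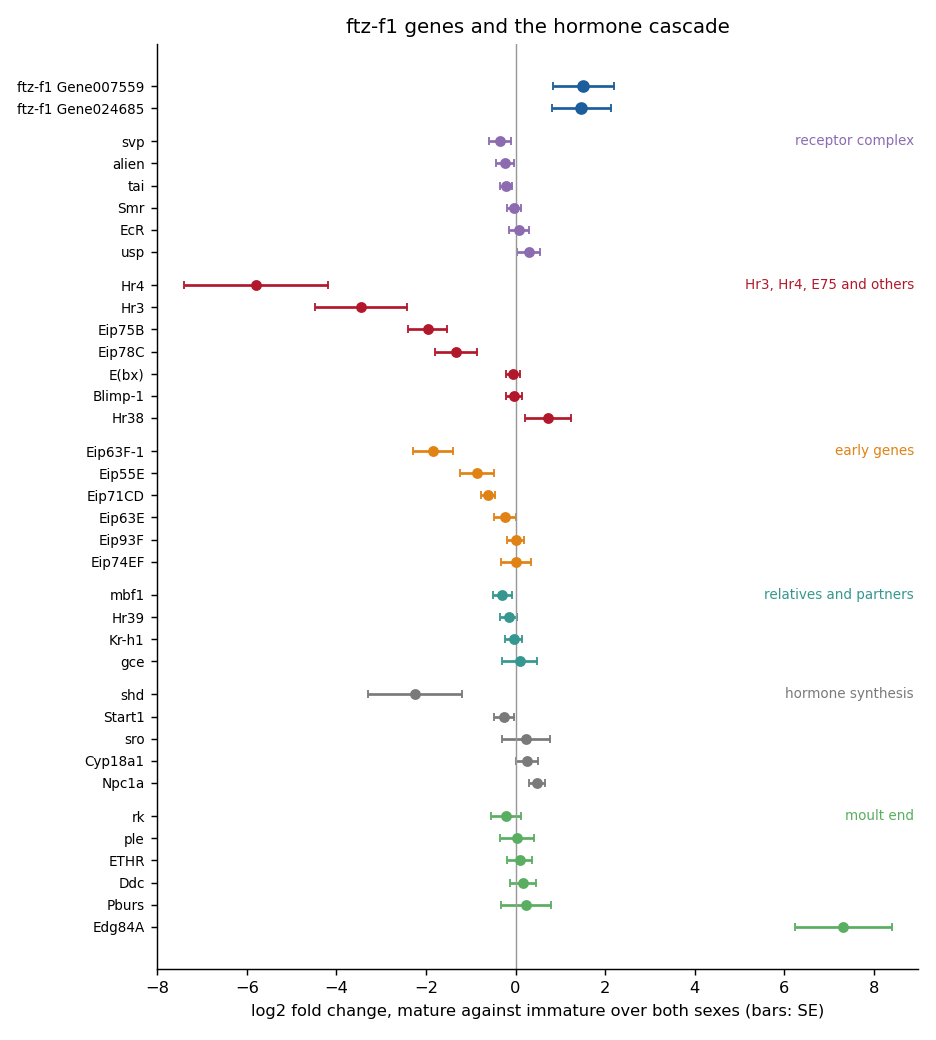
Log2 fold change of mature against immature brains over both sexes, with SE bars, for both ftz-f1 genes (blue) and for the most abundant tested gene of each cascade symbol, by role. The ftz-f1 genes lie at 1.51 and 1.46, Hr4 at -5.80, Hr3 at -3.45, Eip75B at -1.97 and Edg84A at 7.33.

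The genes most like each ftz-f1 gene were looked up among 11542 other tested genes with a named fly match, by Pearson correlation of log2 CPM over the 10 libraries. For Gene007559 these were Gene022394 (yl, a receptor of the LDL receptor family, r = 0.97, rho = 0.98), Gene012083 (CG33298, a phospholipid-transporting ATPase match, r = 0.96), Gene009139 (CG14022, acylphosphatase, r = 0.96), Gene010809 (Gyg, glycogenin, r = 0.95) and Gene007384 (GlyT, a glycine transporter match, r = 0.95). Without immature female 2 and immature male 3 their correlations were 0.91, 0.86, 0.73, 0.71 and 0.63, so for the last 3 the likeness rested largely on those libraries. The genes least like it were Gene016754 (CG10053, a G patch protein, r = -0.99, -0.95 without those libraries) and Gene014847 (Prosbeta4, a proteasome subunit, r = -0.99 and -0.91).

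For Gene024685 the nearest were Gene012083 (r = 0.94), Gene022394 (r = 0.94), Gene010657 (slgA, proline dehydrogenase, r = 0.93), Gene010067 (pros, the homeobox protein prospero, r = 0.93) and Gene012421 (another CG33298 match, r = 0.93). The genes least like it were Gene001592 (Rnmt, an mRNA cap methyltransferase, r = -0.98) and Gene005903 (beg, r = -0.97). Gene012083 and Gene022394 stood in the first 5 of both lists, and Gene007559 itself came 7th for Gene024685, while Gene024685 came 27th for Gene007559. A correlation over 0.9 with Gene007559 was found for 65 of the 11542 genes. Such values follow any difference between low and high libraries that many genes share, and as the highest of so many they are given without a p.

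Gene022394 showed the likeness in levels. It ran from 18.9 to 56.8 CPM in immature and from 56.7 to 97.8 CPM in mature brains, so its stages met as those of Gene007559 did, with a smaller range among the immature brains. Gene010809 had 10.8 to 149 CPM in immature and 175 to 298 CPM in mature brains. By edgeR's quasi-likelihood test neither was called over both sexes (adjusted p = 0.245 and 0.261).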

How the data were processed

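Reads from 10 brain libraries of individual spiders were analysed, as 4 groups taken from the sample labels. The authors trimmed the reads (Trimmomatic 0.32), assembled them without a genome, predicted coding sequences from the consensus, aligned the reads with BWA (0.6.1-r104) and deposited raw counts per gene. They excluded 2 libraries for low coverage. The handling of strand, mates and reads on several genes is not given in the sources used here. In 14278 of 25943 annotation entries the fields stood 1 column to the left and were moved back. The deposited annotation also gave the positions of domains and matches.

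The count model was edgeR 4.0.16 under R 4.3.3. Genes were filtered by filterByExpr (minimum count 10), leaving 24930 of 25922, and normalized by TMM. A model with 4 group means was fitted to all libraries and tested by edgeR's quasi-likelihood F test with Benjamini-Hochberg adjustment (threshold 0.05). The SE is the absolute log2 fold change divided by the square root of F. Alternatives were the likelihood ratio test, DESeq2 1.42.0, RLE size factors, no filter, a replicate block and leaving out each library. Summing the ftz-f1 reading frames was added after seeing the data. The fits were tested on simulated data, in which the likelihood ratio test and DESeq2 made more false calls than the quasi-likelihood test in every comparison. Log2 CPM used a prior count of 2.

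Named were the ftz-f1 genes, genes of a list of hormone cascade symbols (called genes, and the most abundant tested gene per symbol), and for each ftz-f1 gene the 5 most and 2 least correlated genes. Other genes, ERR among them, were chosen after their values were seen. The members and lists were chosen with earlier results of these data known. With 2 or 3 spiders per group, p-values set a difference of group means against the spread between these spiders. That spread was estimated over all 4 groups, with information shared among genes. Depth per library ranged from 3481348 to 11789754 reads.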

Additional observations from a re-analysis of the deposited data

Results flagged for a closer look

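The share of Gene024685 among the reads of both ftz-f1 genes was 18.18% in immature male 3, apart from the other 4 immature libraries (5.71% to 8.36%). The gap to the nearest of them was 0.788 of the range of the 5 immature libraries, against Dixon's critical value of 0.71. It rests on 8 of 44 reads, and its exact 95% interval, 8.19% to 32.7%, overlaps those of the other immature libraries. Of 12 groups of 5 libraries examined (CPM of each gene and this share, by stage and by sex), 1 passed. Chance gives about 1 in 20 for a single group. The 12 groups reuse the same libraries, so 1 pass among them is not read as a result.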

How the results depend on the processing

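The ftz-f1 fold changes kept their sign between the stages under all alternatives run. Neither gene was called under any, which is not read as a test of them. Counts of called genes depended on the test. For mature against immature females, males, both sexes together and males against females, the quasi-likelihood test called 0, 2, 0 and 10 genes, the likelihood ratio test 294, 129, 645 and 94, and DESeq2 376, 255, 742 and 120. Of the hormone cascade genes, the likelihood ratio test called 4, 3 and 10 and DESeq2 7, 8 and 11 in the first 3 comparisons, where the quasi-likelihood test called 0. The cause was not tested.

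Spiders with the same replicate number did not deviate together (correlations of -0.12 to 0.13). With a replicate block, 1, 0 and 31 genes and, over both sexes, 2 cascade genes were called. The ftz-f1 fold changes over both sexes were then 1.46 (Gene007559) and 1.37 (Gene024685).

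Leaving out 1 library gave 0 to 49 calls in females, 0 to 112 in males, 0 to 292 over both sexes and 7 to 39 between the sexes, and 0 to 3 (males) and 0 to 6 (both sexes) cascade genes. The 49 came without immature female 3, and the 112, 292, 39, 3 and 6 without immature male 2. The fold changes of Gene007559 ranged from 0.78 to 4.48 in females, 0.90 to 2.22 in males, 1.08 to 2.92 over both sexes and -0.60 to 1.27 between the sexes. Those of Gene024685 ranged from 0.45 to 4.38, 0.78 to 2.11, 1.01 to 2.96 and -0.47 to 1.52. Summing both ftz-f1 genes gave 1.51 over both sexes, and summing the 4 reading frames, also added after seeing the data, 1.53.

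Of the 5 genes most like Gene007559, 1 was kept by rank correlation and 0 to 4 without 1 library. Of those of Gene024685, 2 were kept with a prior count of 0.5, 3 without TMM factors, 1 by rank correlation and 0 to 5 without 1 library. Low read numbers limit Gene024685, with 2 to 58 reads per library.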
